A study of Mus musculus with 6 samples.

Results

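The genes described here are the enzymes of xenobiotic metabolism that the deposited kidney table lists, chosen by name alone: cytochromes P450 (Cyp, leaving out the retinoic acid hydroxylases named Cyp26), UDP-glucuronosyltransferases (Ugt), glutathione S-transferases (Gst), sulfotransferases (Sult), epoxide hydrolases (Ephx), flavin monooxygenases (Fmo), carboxylesterases (Ces) and aldo-keto reductases (Akr). Such names belonged to 58 of the 11578 genes listed. They were 18 Gst, 18 Cyp, 8 Ugt, 8 Akr, 2 Ephx, 2 Fmo and 2 Sult genes, and 0 Ces genes. Among the Cyp genes 9 belonged to the families Cyp1 and Cyp2, 4 to Cyp4 and 5 to other families, and no Cyp3 gene was listed. The RNA came from 3 mouse kidneys with the genotype SRM deletion mutant (libraries 328, 336 and 342) and 3 with the genotype Sall1 wild type (libraries 330, 331 and 337). All were harvested fresh near the end of gestation, at embryonic day 17 by the stage label, while the extraction protocol gives a slightly later stage. SRM stands for the Sall1 repression motif, the short stretch of this zinc finger transcription factor that contacts NuRD, a complex that remodels and deacetylates chromatin. The labels give no zygosity, strain, sex or litter, and do not say whether the kidneys of a group came from separate embryos, so p-values measure only the spread between these kidneys.

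Xenobiotic metabolism makes foreign and endogenous lipophilic compounds soluble in steps. Cytochromes P450, flavin monooxygenases, hydrolases and reductases first introduce or expose a reactive group, and transferases then attach glucuronic acid, glutathione or sulfate so that transporters can export the product. In the kidney most of these enzymes work in the proximal tubule, whose cells take organic anions and cations from the blood and secrete them into the urine, and several of the same families also act on fatty acids, steroids and vitamin D.

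Each value is a signal per gene that the authors had scaled, with library totals between 555147910 and 559251769. Sall1 was at 146230, 161553 and 130258 in mutants 328, 336 and 342 and at 176175, 152644 and 171578 in wild types 330, 331 and 337 (log2 difference -0.19, SE 0.16), which does not check the labels, since the deletion covers only a short motif. Whether the signal is per transcript length is not given in the sources used here, so signals are compared between libraries and not between genes. The spacing of the values gave an estimate of relative depth, from 1.0 in wild type 337 through 1.54 in wild type 331 and 1.92 in mutant 336 to between 3.99 and 4.34 in mutants 328 and 342 and wild type 330. Wild type 330 stood apart from the other wild types: component 1 held 60.0% of the variance over all genes and placed it with the mutants. For 36 of the 58 enzyme genes (62.1%), and for 75.8% of all genes, its log2 signal lay nearer to the mutant mean than to the mean of the other wild types. The same count was 12 and 13 genes for wild types 331 and 337.

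The promoters of 4 of these genes are shown because they belong to the pair that passed the test, Cyp2e1 and Ugt2b34, and to the neighbours Ugt2b5 and Ugt2b37, whose signals differed between genotypes in opposite directions. Each line gives the 250 bases before the RefSeq transcription start on GRCm38.p6, the assembly also called mm10, in the direction of the gene. Gene coordinates given elsewhere are from GENCODE, whose start is the same for Ugt2b34 and differs for the other genes. By GENCODE, Cyp2e1 begins at 140763739 and Ugt2b37 at 87254804, both inside the windows shown here. Capitals mark matches to the letters searched on both strands: the TATA box (TATAAA), an HNF4 core (CAAAGTCCA) and an antioxidant response element core (TGACNNNGC).
Cyp2e1, chr7:140763569-140763818, plus strand: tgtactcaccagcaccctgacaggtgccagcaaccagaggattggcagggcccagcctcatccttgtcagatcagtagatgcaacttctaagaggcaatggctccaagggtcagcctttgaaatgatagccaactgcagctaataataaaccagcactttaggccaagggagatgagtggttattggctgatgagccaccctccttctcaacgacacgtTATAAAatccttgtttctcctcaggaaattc
Ugt2b34, chr5:86906938-86907187, minus strand: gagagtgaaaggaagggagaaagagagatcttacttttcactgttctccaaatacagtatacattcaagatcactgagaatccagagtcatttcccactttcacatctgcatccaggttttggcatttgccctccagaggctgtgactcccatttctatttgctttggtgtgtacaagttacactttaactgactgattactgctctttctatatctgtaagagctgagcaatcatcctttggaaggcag
Ugt2b5, chr5:87140341-87140590, minus strand: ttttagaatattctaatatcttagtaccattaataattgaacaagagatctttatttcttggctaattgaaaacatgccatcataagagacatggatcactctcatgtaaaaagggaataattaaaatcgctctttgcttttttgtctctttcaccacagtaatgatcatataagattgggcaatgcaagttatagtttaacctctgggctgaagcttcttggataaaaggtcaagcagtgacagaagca
Ugt2b37, chr5:87254789-87255038, minus strand: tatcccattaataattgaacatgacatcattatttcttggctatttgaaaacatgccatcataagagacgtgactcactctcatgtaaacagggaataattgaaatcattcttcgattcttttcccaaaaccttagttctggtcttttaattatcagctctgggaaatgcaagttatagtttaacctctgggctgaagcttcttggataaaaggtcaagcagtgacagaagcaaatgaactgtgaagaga

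The Cyp2e1 promoter held a TATA box from base -31 to -26, counted back from the RefSeq start, and none of the other motifs. The 3 Ugt2b promoters held none of the 3 motifs in this window, which says nothing of whether a factor binds there. The TATA box occurred in 12.4% of 32851 RefSeq promoters of this length. Of the enzyme genes 47 had a promoter in the RefSeq table, with 55 promoters in all, and the TATA box occurred in 8 of these 55. The antioxidant element core occurred in 10.2% of all promoters and in 3 of the 55, those of Gsta3, Gstm5 and Gstm7. The HNF4 core occurred in 0.384% and in 0 of the 55. The promoters of Ugt2b5 and Ugt2b37 were 73% identical over 274 aligned positions and shared a run of 67 identical bases, whereas Ugt2b34 was 50.5% and 54% identical to them over 297 and 285 aligned positions.

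Of the 58 enzyme genes 1 rose and 1 fell in mutant kidneys. Cyp2e1, the P450 that oxidizes ethanol, small solvents and paracetamol, rose 7.84-fold, and Ugt2b34, a glucuronosyltransferase, fell to 0.213 of its wild type mean. The other 56 had a limma p of 0.05 or more once it was adjusted by Benjamini and Hochberg's method over all genes. Among all 11578 genes 0.285% were called, 0.199% higher and 0.0864% lower in mutants. The lower group means, 3064 for Cyp2e1 in wild types and 2942 for Ugt2b34 in mutants, lay below 3146. That was the lowest mean over all libraries of any gene in the table. No gene that low in both groups was listed, and both ratios rest on values near this floor. In whole kidneys a change in the number of cells of a type and a change of RNA per cell cannot be told apart.

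Cyp2e1 (chromosome 7, 140763739 to 140774987, mm10) had a signal of 27123, 21508 and 23434 in mutants 328, 336 and 342. In wild types 330, 331 and 337 it was 3812, 2933 and 2446. The lowest mutant value thus lay several-fold above the highest wild type value, and wild type 330 did not stand with the mutants for this gene. The means were 24022 ± 2853 and 3064 ± 692 (SD, n = 3 each), and the log2 difference was 2.99 (SE 0.27, limma adjusted p = 0.00150). Leaving out 1 library moved the difference between 2.84 and 3.16, and it passed in all 6 of these fits. Within the libraries of lower depth it was 3.0 and within those of higher depth 2.73, with mutant 336 and wild type 330 the lone library of its genotype.

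Ugt2b34 (chromosome 5, 86889767 to 86906937, mm10) had a signal of 2339, 2653 and 3835 in mutants 328, 336 and 342. In wild types 330, 331 and 337 it was 11543, 19614 and 10223. The groups did not overlap, and the spread was wider among wild types, with wild type 331 the highest. The log2 difference was -2.20 (SE 0.34, limma adjusted p = 0.0226). The adjusted p was 0.111, 0.0924 and 0.0684 without mutants 328, 336 and 342 and 0.157 without wild type 331, so the call rested on each of these 4 libraries. The log2 difference in those fits was -2.05, -2.14, -2.41 and -1.92, close to the value with all libraries, and they called between 2 and 12 of all genes. It was also lost, at an adjusted p of 0.0575 and a log2 difference of -1.72, once the dependence on transcript length and GC content had been removed. Only 1.45% of the 50-base words in its GENCODE transcript occur in a transcript of another gene.

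**Figure D1:**
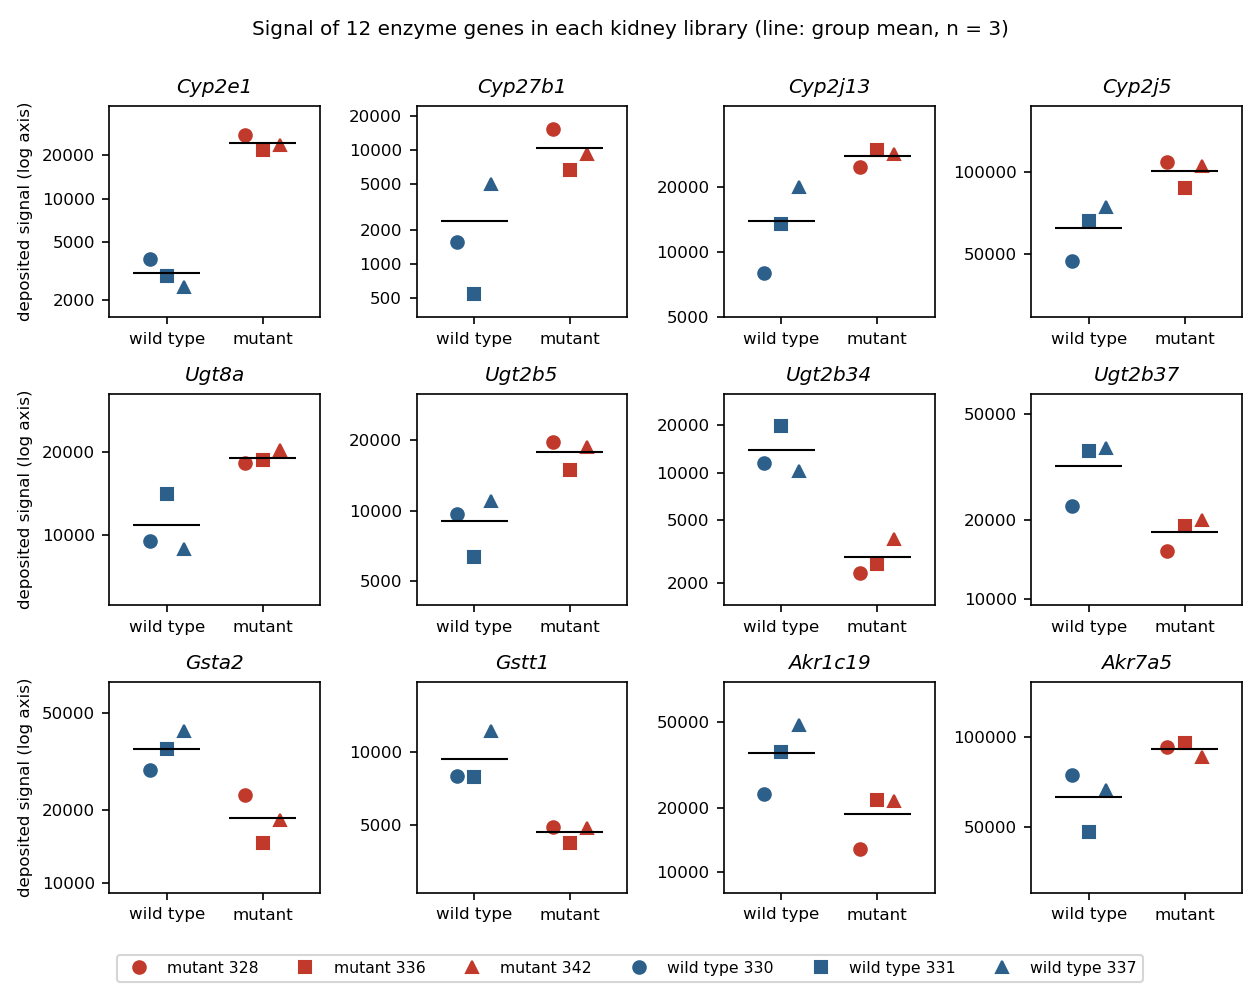
Deposited signal (vertical log axis) of 12 enzyme genes in each wild type and mutant library, with a line at the mean of each group of 3. Cyp2e1 lies between 21508 and 27123 in mutants and between 2446 and 3812 in wild types, and Ugt2b34 between 2339 and 3835 in mutants and between 10223 and 19614 in wild types.

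At an unadjusted limma p under 0.05 there were 23 of the 58 enzyme genes (39.7%), 17 higher and 6 lower in mutants, where 19% of all genes had such a p, 10.5% higher and 8.51% lower. The mutant and wild type values did not overlap for 20 enzyme genes (34.5%), 12 higher and 8 lower, against 19.5% of all genes, 11.1% higher and 8.42% lower. A log2 difference of more than 0.5 in either direction was found for 28 enzyme genes (48.3%) and 22.1% of all genes. The median log2 difference was nevertheless close to 0, at 0.13 for the enzyme genes and 0.02 for all genes, because 33 were positive and 25 negative. The median of the absolute log2 difference was 0.47 and 0.28. These counts moved with single libraries: the number of enzyme genes at an unadjusted p under 0.05 was 14 without mutant 328 and 15 without wild type 337, where 7.37% and 7.88% of all genes had such a p.

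**Figure D2:**
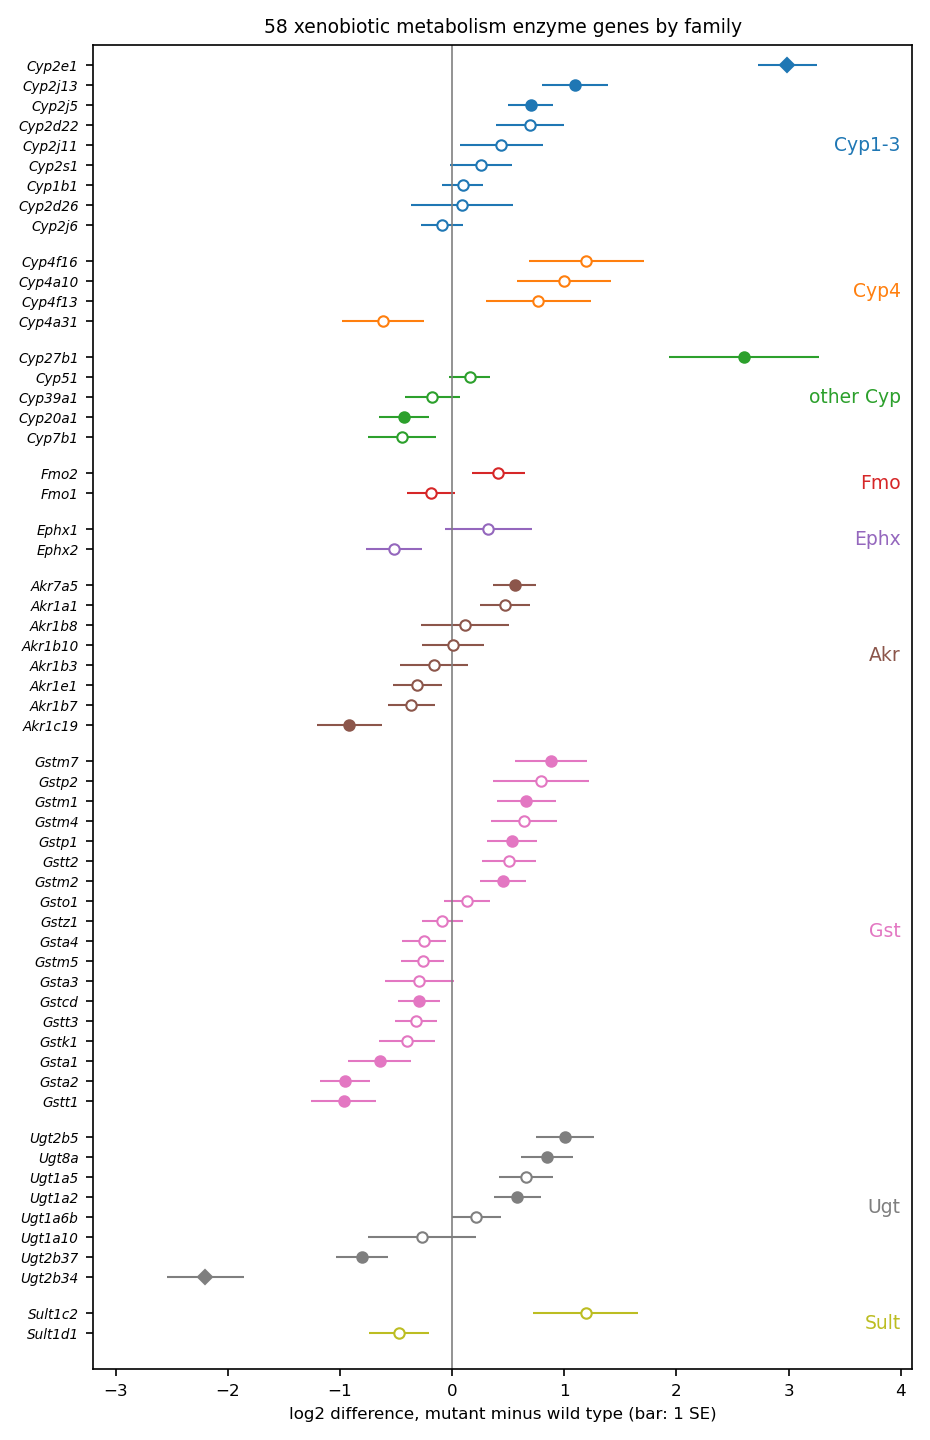
Log2 difference between mutants and wild types (horizontal axis) with 1 SE for each of the 58 enzyme genes, grouped by family. Diamonds mark Cyp2e1 and Ugt2b34, which passed the test, filled symbols the 20 genes whose groups do not overlap, and open symbols the other 38.

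The P450 families Cyp1 to Cyp3 carry most drug oxidation, but only Cyp1b1 and Cyp2 genes were in the table, and no Cyp3 gene. Among these P450s 8 of 9 log2 differences were positive. Over all 11578 genes 6071 were positive. Of the 9 genes 4 had an unadjusted limma p under 0.05, against 19% of all genes. Cyp2e1 apart, these were Cyp2j13, Cyp2j5 and Cyp2d22. Cyp2j5 (chromosome 4, 96628773 to 96664154, mm10), an epoxygenase of arachidonic acid that is abundant in mouse kidney, had a signal of 108688, 86901 and 105109 in mutants 328, 336 and 342. It was 47168, 65883 and 74458 in wild types 330, 331 and 337. Every mutant value was above every wild type value, and wild type 330, the library nearest to the mutants over all genes, was the lowest of all. The log2 difference was 0.70 (SE 0.20, limma adjusted p = 0.231). Cyp2j13, of the same subfamily (chromosome 4, 96027534 to 96077546, mm10), showed the same order of groups. It had 24767, 29583 and 28368 in mutants against 7960, 13449 and 19997 in wild types. Its log2 difference was 1.09 (SE 0.29, limma adjusted p = 0.231). With the depth class in the model Cyp2j13 passed (adjusted p = 0.0396). Once length and GC content had been regressed out both passed, Cyp2j5 at 1.01 and Cyp2j13 at 1.33 on the log2 scale (adjusted p = 0.0142 and 0.0415). Without wild type 330 both also passed, at smaller differences of 0.51 and 0.75, but that fit called 26.7% of all genes and 26 of the 58 enzyme genes. In the other fits without 1 library neither passed. The Cyp2j5 difference was 0.31 in the libraries of lower depth alone and 1.18 in those of higher depth, where Cyp2j13 was at 1.74. Mutant 336 and wild type 330 were the lone libraries of their genotype in these fits. Depth therefore cannot be told apart from these single libraries.

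The other Cyp2j genes had overlapping groups, and no difference between members of the subfamily was tested. Cyp2j6 and Cyp2j11, which lie between Cyp2j13 and Cyp2j5 on chromosome 4, had log2 differences of -0.09 (SE 0.18) and 0.44 (SE 0.37). The log2 ratio of Cyp2j5 to Cyp2j6 signal, a pair chosen after the values were seen, was 2.10, 1.69 and 2.0 in mutants against 0.99, 1.09 and 1.32 in wild types, so the groups did not overlap. Under 2% of the 50-base words of each of these 4 genes occurred in another gene. Cyp2d22 had a log2 difference of 0.69 (SE 0.30) with overlapping groups. Cyp2d26 had 32034, 19839 and 80640 in mutants against 54926, 20625 and 37450 in wild types, the widest spread among mutants of any of the 58 genes, 4.06-fold from lowest to highest. Cyp1b1, an oxidant of polycyclic hydrocarbons and estradiol, differed little between groups (0.09, SE 0.19).

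Of the 4 Cyp4 genes, omega-hydroxylases of fatty acids and eicosanoids, 2 had an unadjusted p under 0.05 and 0 had groups that did not overlap. Over all genes these shares were 19% and 19.5%. Cyp4a10, which is induced by the fatty acid receptor PPAR alpha in mouse liver and kidney, had 15037, 14759 and 11699 in mutants against 13264, 7716 and 3185 in wild types. Wild type 330 lay among the mutants, and the log2 difference was 1.0 (SE 0.42), or 0.44 without wild type 337. Cyp4a31, a neighbour on chromosome 4, lay the other way, at 12819, 15886 and 10588 in mutants against 9939, 31171 and 24910 in wild types (-0.61 on the log2 scale, SE 0.37), with -0.28 for Cyp4a31 without wild type 331. Wild type 330 was again apart from wild types 331 and 337, now as the lowest of all libraries. Cyp4f16 and Cyp4f13 had log2 differences of 1.2 (SE 0.51) and 0.77 (SE 0.47), and without wild type 337 of 0.69 and 0.44. Shared sequence makes these values uncertain, since 30.5% of the 50-base words of Cyp4a10, 21.8% of Cyp4a31 and 26.5% of Cyp4f16 occur in other genes.

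Among the P450s of sterol, steroid and vitamin metabolism, Cyp27b1 (chromosome 10, 127048250 to 127053006, mm10), the hydroxylase of the proximal tubule that activates vitamin D, had the second largest difference of the 58 genes. Its signal was 15364, 6684 and 9233 in mutants 328, 336 and 342 against 1540, 542 and 5036 in wild types 330, 331 and 337. The groups did not overlap, but the wild types spanned 9.29-fold, and wild type 337 came close to the lowest mutant. The log2 difference was 2.60 (SE 0.67, limma adjusted p = 0.215). It passed in 2 of the 6 fits without 1 library. These were the fits without wild type 337 (3.43, limma adjusted p = 0.0480) and without wild type 330 (2.57, limma adjusted p = 0.0248). The latter fit called 26.7% of all genes. Without wild type 331 the Cyp27b1 difference was 1.82 (limma adjusted p = 0.563). Cyp20a1, a P450 of unknown substrate, was lower in every mutant than in every wild type, with 11968, 13316 and 11191 against 13496, 19940 and 16176 (-0.43, SE 0.22, limma adjusted p = 0.297), with -0.29 for Cyp20a1 without wild type 331. Cyp51, the lanosterol demethylase of cholesterol synthesis, and Cyp7b1, an oxysterol hydroxylase, had log2 differences of 0.16 (SE 0.18) and -0.45 (SE 0.30).

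The flavin monooxygenases, epoxide hydrolases and most aldo-keto reductases did not separate the genotypes. Fmo1, the main renal flavin monooxygenase of the mouse, averaged 48508 ± 12915 in mutants against 54114 ± 4872 in wild types (SD, n = 3 each), and Fmo2 a log2 difference of 0.41 (SE 0.24). Ephx1, the microsomal epoxide hydrolase, and Ephx2, the soluble enzyme that hydrolyses epoxides of arachidonic acid, had log2 differences of 0.32 (SE 0.39) and -0.52 (SE 0.25).

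Of the 8 aldo-keto reductases 2 had groups that did not overlap, against 19.5% of all genes. Akr7a5, a reductase of aldehydes including aflatoxin dialdehyde, had 92987, 96012 and 86277 in mutants against 75088, 48318 and 66596 in wild types (0.56 on the log2 scale, SE 0.19, limma adjusted p = 0.233). With length and GC content regressed out, the Akr7a5 difference was only 0.072 (adjusted p = 0.876), and in the libraries of higher depth alone 0.25. Akr1c19, of the hydroxysteroid dehydrogenase subfamily, had 12851, 21830 and 21486 in mutants against 23192, 36259 and 48432 in wild types. The margin between its groups was narrow at wild type 330, and the log2 difference was -0.92 (SE 0.29, limma adjusted p = 0.231). In the same alternatives Akr1c19 lay at -0.54 and -0.48. Akr1a1, which reduces glucuronate on the mouse path to ascorbate, had overlapping groups and a log2 difference of 0.47 (SE 0.22). All 4 Akr1b genes, the aldose reductases, lay between -0.36 and 0.12.

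Of the 18 glutathione S-transferases 0 passed the test in limma, and 7 had an unadjusted p under 0.05, 4 higher and 3 lower. Among all genes 10.5% were higher and 8.51% lower by that count. All 4 alpha class genes had a negative log2 difference, 4 of 5 mu class genes and both pi class genes a positive one, and no difference between classes was tested. The direction of Gsta3 flipped with length and GC content regressed out, and those of Gstp2 and of Gstm5, the negative mu class gene, in the libraries of higher depth alone. The other Gsta and Gstm genes and Gstp1 kept their sign in the alternatives tried.

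Gsta2 (chromosome 9, 78331018 to 78355788, mm10), an alpha class enzyme that also reduces lipid peroxides, had 22966, 14540 and 18115 in mutants 328, 336 and 342. It had 29197, 35621 and 42260 in wild types 330, 331 and 337. The groups did not overlap, and the log2 difference was -0.95 (SE 0.22, limma adjusted p = 0.174), the smallest p of the enzyme genes that did not pass. In the libraries of higher depth alone the Gsta2 difference was -0.52. Gsta1 followed it, with 4223, 5157 and 4447 against 7145, 6937 and 7499 (-0.65, SE 0.28, limma adjusted p = 0.257). Of the 50-base words of Gsta2 and Gsta1, 64.2% and 89.7% occur in other genes and 44.8% of those of Gsta2 in Gsta1 itself, so their signals cannot be assigned to one gene. Gsta3 and Gsta4, with none of their words shared, had smaller differences of -0.29 (SE 0.31) and -0.25 (SE 0.20) with overlapping groups.

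Of the mu class, Gstm7 had 7876, 8254 and 8889 in mutants against 6610, 4357 and 3213 in wild types (0.88 on the log2 scale, SE 0.32, limma adjusted p = 0.241), with none of its words shared. Gstm1 had 30567, 27358 and 33238 against 25019, 12083 and 23186 (0.66, SE 0.27, limma adjusted p = 0.248). In both genes wild type 330 was the wild type nearest to the mutants. Without wild type 331 the Gstm1 difference was 0.33, and in the libraries of higher depth alone Gstm7 was at 0.34 and Gstm1 at 0.35. Gstm2, at 0.46 (SE 0.20), also had groups that did not overlap, and Gstm4, at 0.64 (SE 0.29), did not. Gstm5, at -0.26 (SE 0.19), lay the other way on the same stretch of chromosome 3.

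Gstp1, a pi class enzyme of many epithelia, had 49884, 62121 and 46866 in mutants against 43940, 41861 and 26039 in wild types (0.53 on the log2 scale, SE 0.23, limma adjusted p = 0.253). Without wild type 337 Gstp1 was at 0.29. Its copy Gstp2 had 0.79 (SE 0.43), or 0.50 without that library, and 62.3% of the words of Gstp1 occur in Gstp2. In the theta class Gstt1, which conjugates small halogenated compounds, had 4930, 4219 and 4874 in mutants against 7936, 7852 and 12149 in wild types (-0.97, SE 0.29, limma adjusted p = 0.231). Its neighbour Gstt2 had a log2 difference of 0.51 (SE 0.24) and Gstt3 one of -0.32 (SE 0.19). The log2 ratio of Gstt2 to Gstt1 signal, also chosen after the values were seen, was 2.09, 1.99 and 1.89 in mutants against 1.16, 0.60 and -0.22 in wild types.

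Gstcd, which carries only a domain of these enzymes, had the narrowest spread among mutants, 16294, 16266 and 16548 in mutants against 19261, 21154 and 19833 in wild types. The groups did not overlap, yet the difference was small (-0.29, SE 0.19, limma adjusted p = 0.370). Gstz1, the maleylacetoacetate isomerase of tyrosine breakdown, and Gsto1 lay at -0.09 (SE 0.18) and 0.13 (SE 0.21), and Gstk1, of mitochondria and peroxisomes, at -0.40 (SE 0.25).

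The glucuronosyltransferases held the widest range of differences of any transferase family, from -2.20 for Ugt2b34 to 1.0 for Ugt2b5. Of these 8 genes 6 had an unadjusted limma p under 0.05, against 19% of all genes. All 3 Ugt2b genes lie within a stretch of chromosome 5, where Ugt2b5 is at 87124960 to 87140318 and Ugt2b37 at 87240493 to 87254804 (mm10). Ugt2b5 had 19728, 14877 and 18632 in mutants 328, 336 and 342 against 9657, 6345 and 11047 in wild types 330, 331 and 337. Ugt2b37 had 15235, 18907 and 19926 in mutants against 22447, 36293 and 37415 in wild types. Both genes separated the groups, Ugt2b5 upward by 1.0 (SE 0.26) and Ugt2b37 downward by 0.80 on the log2 scale (SE 0.23), but neither passed (limma adjusted p = 0.215 and 0.231). The Ugt2b37 difference shrank to -0.31 with length and GC content regressed out and to -0.37 in the libraries of higher depth alone.

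These neighbours, whose promoters share the run of 67 bases shown above, thus differed in opposite directions. The log2 ratio of Ugt2b5 to Ugt2b37 signal was 0.37, -0.35 and -0.10 in mutants against -1.22, -2.52 and -1.76 in wild types. Against Ugt2b34 the log2 ratio of Ugt2b5 was 3.08, 2.49 and 2.28 in mutants against -0.26, -1.63 and 0.11 in wild types. Neither ratio overlapped between groups, which had to follow because Ugt2b5 separated the groups upward and Ugt2b37 and Ugt2b34 downward. The ratios therefore add no support, and both pairs were chosen after the values were seen. Of the 50-base words of Ugt2b5 41.7% occur in other genes, 34.8% in Ugt2b38, and of those of Ugt2b37 18.3%, so part of either signal may belong to a paralog.

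Ugt8a (chromosome 3, 125865271 to 125938619, mm10), which makes galactosylceramide and belongs to the family by sequence more than by role, had 18204, 18627 and 20312 in mutants against 9484, 14050 and 8892 in wild types. The mutant values were close together and all above the wild types (0.85 on the log2 scale, SE 0.23, limma adjusted p = 0.231), and the gene passed with length and GC content regressed out (1.36, adjusted p = 0.0338). The Ugt1a genes use separate first exons joined to the same later exons, and between 63.7% and 80.7% of their words are shared. Ugt1a2 had 46741, 32404 and 44133 in mutants against 31014, 22578 and 28428 in wild types (0.58, SE 0.21, limma adjusted p = 0.236). Ugt1a5 and Ugt1a6b had 0.66 (SE 0.24) and 0.22 (SE 0.22), and Ugt1a10 -0.27 (SE 0.48), the last 3 with overlapping groups.

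Both sulfotransferases had overlapping groups. Sult1d1, which sulfates catecholamines in mouse kidney, had 65305, 79816 and 75743 in mutants against 61411, 121357 and 141115 in wild types. Wild type 330 was the lowest of all 6 libraries, and the log2 difference of -0.47 (SE 0.27) became 0.31 with length and GC content regressed out. Sult1c2 had 4145, 10882 and 8559 against 4338, 4392 and 1704 (1.19, SE 0.47), where mutant 328 lay among the wild types. Without wild type 337 the Sult1c2 difference was 0.74.

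**Figure D3:**
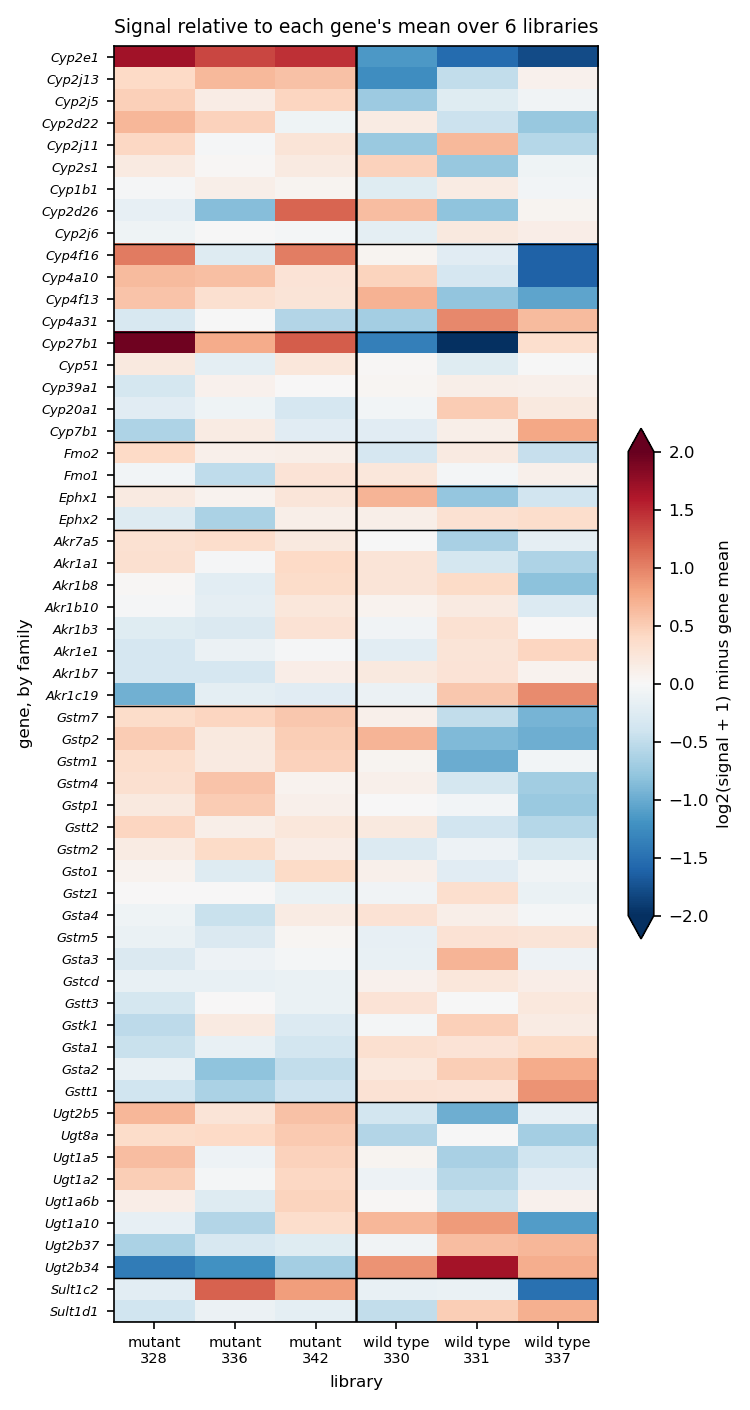
Signal of the 58 enzyme genes in each library as log2(signal + 1) minus the gene's mean over the 6 libraries (colour, limited to 2 in either direction), by family. For 36 of the 58 genes the wild type 330 column lies nearer to the mutant mean than to the other wild types, but not for Cyp2e1, Cyp27b1, Cyp2j5 or Cyp2j13.

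The choice of libraries set how many of these genes passed. Without wild type 330, 26 of the 58 passed, 19 higher and 7 lower, in a fit that called 26.7% of all genes. At an unadjusted p under 0.05 that fit held 34 of the 58 and 41.2% of all genes. Without wild type 337, 3 passed, the third being Cyp27b1, in a fit that called 0.147% of all genes. Without mutants 328, 336 or 342 or wild type 331 Cyp2e1 alone passed, in fits that called between 2 and 12 of all genes. With the depth class in the model 3 passed, with Cyp2j13 added, and 0.371% of all genes were called. By the p-values of the authors' deposited table, 14 enzyme genes had an unadjusted p under 0.05, 8 higher and 6 lower, against 8.71% of all genes, and once those p-values were adjusted over all genes 0 passed, with 0.240 the lowest.

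**Figure D4:**
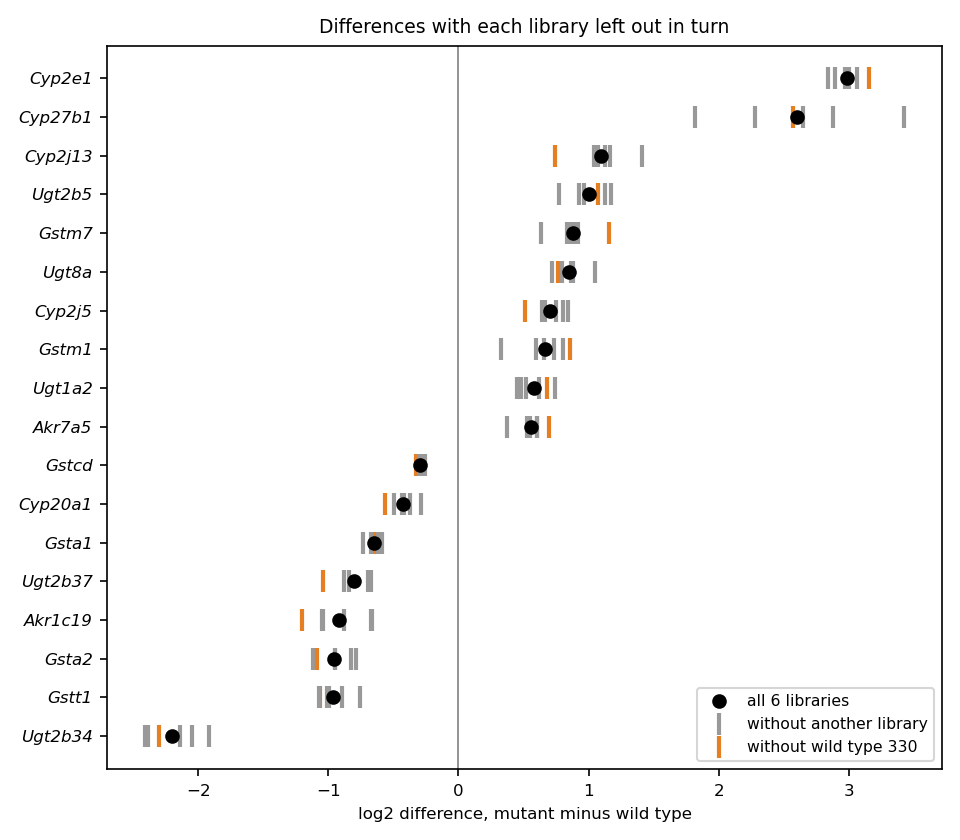
Log2 difference (horizontal axis) of 18 enzyme genes with all 6 libraries (black) and with each library left out in turn (bars, orange without wild type 330). Cyp2e1 stays between 2.84 and 3.16, whereas Cyp27b1 ranges from 1.82 to 3.43. Each of the 18 keeps its sign, which leaving out a library cannot turn, since their groups do not overlap.

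The other genes of the pathway, from lists chosen by function, held no gene past the test in limma, and 6 of their 43 genes in the table had an unadjusted p under 0.05, a smaller share than the 19% of all genes. Values of single genes from these lists are given as a description. Of 12 nuclear receptors and regulators 10 were in the table, without the xenobiotic receptors Nr1i2 and Nr1i3, and 1 was higher and 1 lower at an unadjusted p under 0.05. Nfe2l2, which drives the antioxidant response and many Gst genes, was the lower one, at -0.44 (SE 0.19).

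Of 11 electron donors and cofactor enzymes 10 were in the table, and 0 had an unadjusted p under 0.05 in limma. Por, the reductase that supplies electrons to microsomal P450s, and Cyb5r3, the cytochrome b5 reductase, lay at 0.39 (SE 0.18) and 0.42 (SE 0.21). Of 16 other conjugating and reducing enzymes 12 were in the table, and 1 was higher and 1 lower by the unadjusted count, Nat8 at 0.74 (SE 0.25) and Nqo2 at -0.52 (SE 0.21). Of 13 drug transporters 11 were in the table, and 2 were higher by that count, the organic anion transporters Slc22a6 at 0.59 (SE 0.17) and Slc22a8 at 0.62 (SE 0.27), or 0.33 without wild type 337. The medians of these 4 lists, in the order given, were 0.07, 0.08, 0.17 and 0.20.

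Markers of cell types, none of which passed the test in limma, are given beside these enzymes, and the 19% of all genes at an unadjusted p under 0.05 is the background of each count. All 20 proximal tubule markers were in the table, and 9 were higher and 0 lower at an unadjusted p under 0.05, with a median log2 difference of 0.45. Their summed signal lay between 2133239 and 3260578 in mutants and between 1937807 and 2222437 in wild types. Kap and Pck1, the 2 with the lowest p, had log2 differences of 1.5 (SE 0.28) and 1.38 (SE 0.29) and did not pass (limma adjusted p = 0.0654 and 0.114). Of these 20 markers 17 had a positive and 3 a negative log2 difference. Groups did not overlap for 8 higher markers and 1 lower one, against 19.5% of all genes. The lower one was Keg1, at -0.35 (SE 0.17), and the apical receptor Lrp2 lay at -0.12 (SE 0.19). Of the macrophage markers 6 of 10 were in the table and 5 were higher by the unadjusted count, with summed signals of 88836 to 89549 in mutants and 49307 to 56386 in wild types. Csf1r and C1qc lay at 0.95 (SE 0.21) and 1.64 (SE 0.34). Of 8 proliferation genes 3 were lower and 0 higher by that count. By sign 6 were negative and 2 positive, Plk1 at 0.19 (SE 0.19) and Birc5 at 0.25 (SE 0.21). Their summed signals were 611351 to 682845 in mutants against 772197 to 1070754 in wild types. Mki67 and Top2a, both among the lower genes, contributed most to these sums. The part of these cell types in the enzyme differences was not tested.

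Endothelial and stromal markers had medians of 0.02 and 0.12, with 1 higher and 1 lower of 7 and 1 higher of 8 by the unadjusted count. None of 12 hepatocyte markers was in the table, and of 10 adrenal cortex markers only Akr1b7 and Fdx1 were, with 0 at an unadjusted p under 0.05 in limma. Summed signal of the 4 Y-linked genes in the table lay between 74683 and 92498 in mutants. In wild types 330, 331 and 337 it was 78633, 132407 and 124148. Each library thus held such signal, and the ranges overlapped only through wild type 330. All 4 log2 differences were negative, with a median of -0.45, and 1 gene was lower at an unadjusted limma p under 0.05. The part of embryo sex in the enzyme differences was not tested.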

How the data were processed

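Groups and library numbers came from the sample titles. The groups share no number. Ion Torrent libraries were made from the polyadenylated fraction of 4 to 5 µg of kidney RNA, per the labels' protocols. The deposited signal is a whole number per gene that the authors had scaled. The submitters' processing notes name mm10 and bedtools. The aligner, annotation, scaling and any low-value filter were not given in the sources used here. The lowest mean signal in the table was 3146. Beside the signal the authors deposited, per gene, the ratio of the 2 group means, log2 values and a p-value.

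The fit was limma 3.58.1 (R 4.3.3) with its variance trend, on log2(signal + 1) of all 11578 genes. A gene was called at a p, adjusted by Benjamini and Hochberg's method over these genes, under 0.05. No low-value filter was applied. The script was tested on simulated data. No read counts were recovered, so no counting error is given. The spacing of values came from a Fourier transform of their histogram, and spacing below or above 1 gave 2 depth classes. Coordinates, transcript length, GC content and the share of 50-base words found in transcripts of other genes came from GENCODE M21 on GRCm38, where 10951 genes matched by symbol and 567 by synonym. Promoters came from RefSeq.

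Named are the enzyme genes past the threshold, among those without overlap the 10 most raised and the 10 most lowered, or fewer where there were fewer, and the one with the highest signal of each family. From each other list the genes past the threshold or up to 2 with the lowest p were eligible. A gene that this rule names is not reported here. Other named genes, such as Cyp2d26, were chosen after their values were seen. Members and lists were chosen with earlier results of these data known. The alternatives tried are in the closing section.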

Additional observations from a re-analysis of the deposited data

How the results depend on the processing

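No paired analysis was possible because the groups share no replicate number. Leaving out 1 library moved the count of members higher in mutants from 1 to between 1 and 19, of members lower in mutants from 1 to between 0 and 7, of members with unadjusted p under 0.05 from 23 to between 14 and 34, and the median log2 difference of members from 0.13 to between 0.013 and 0.29, the highest counts all without wild type 330. Members higher and lower in mutants numbered 2 and 1 with depth class as a covariate, 2 and 5 in libraries with spacing above 1 alone (6.08% of all genes called), 6 and 1 in those below 1 alone (0.605%), 4 and 0 with length and GC content regressed out (0.434%), 1 and 0 at a mean signal of at least 10000, which left 40 members and not Ugt2b34, and 0 and 0 by the authors' p-value, whose lowest adjusted value was 0.240. With depth class as a covariate 0.371% of all genes were called, and at that minimum 0.258% of the genes tested. Members with unadjusted p under 0.05 numbered 15 at that minimum and 14 by the authors' p-value. Of all genes tested there, 19.2% and 8.71% had such a p. The median log2 difference of members was -0.0697 in libraries with spacing above 1. A pseudocount of 1000, quantile normalization, median-ratio scaling, no trend and an adjusted p under 0.1 left 1 higher and 1 lower. Direction turned in 30 of 1056 alternatives for single genes. In libraries with spacing below 1 log2 differences were 0.23 for Cyp4a31, 0.012 for Gstz1, 0.20 for Sult1d1, -0.18 for Gstp2, -6.4e-05 for Cyp4a10, -0.27 for Cyp4f13, -0.11 for Cyp2d26, 0.11 for Gstm5, 0.13 for Cyp2j6, -0.47 for Ephx1 and -0.0082 for Cyb5r3. With spacing above 1 they were -0.0721 for Cyp51, -0.0744 for Ugt1a6b, -0.49 for Cyp2d26, -0.0673 for Cyp2j11 and -0.10 for Gsto1. With length and GC content regressed out they were 0.31 for Sult1d1, -0.10 for Cyp2d26, 0.20 for Cyp2j6, 0.0735 for Gsta3 and -0.0407 for Por, and with depth class as a covariate -0.30 for Cyp2d26. Leaving out 1 library gave -0.38 to 0.017 for Fmo1, -0.17 to 0.0591 for Gstz1, -0.89 to 0.0951 for Ugt1a10, -0.47 to 0.54 for Cyp2d26, -0.0068 to 0.20 for Cyp1b1 and -0.0218 to 0.29 for Gsto1. The left-out libraries, single depth classes and the signal minimum reduce what was tested. For the rest the cause was not tested. The unknown unit of the signal leaves counting error at low values unmeasured. Such values include those of Cyp2e1 and Cyp27b1 in wild types and of Ugt2b34 in mutants.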
